A study of Homo sapiens with 2 samples.

Results

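The 7 genes described here encode the ligands of the DLL, JAG and DLK families, namely DLL1, DLL3, DLL4, JAG1, JAG2, DLK1 and DLK2. They were taken by gene symbol, with earlier results of these data known, and all 7 were found among the 19196 genes with usable values. Their mRNA was read in polyA RNA libraries labelled as A549, an established human line from a lung adenocarcinoma, a non-small cell lung cancer (NSCLC). The A549-NICD1 library came from cells overexpressing NICD1, the part of the NOTCH1 receptor that is cut free on activation and enters the nucleus, and the A549-Vector library from vector control cells. The study's methods describe stable lines made with lentiviral pSin-EF2 vectors that carry antibiotic resistance, and whether a line was 1 clone is not given in the sources used here. With 1 library in each group, the differences have no replicate check, p-values are not given, and all intervals cover counting error alone.

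Notch signaling passes between touching cells. A ligand on the surface of the sending cell binds a Notch receptor on its neighbour, is pulled into the sending cell after ubiquitination, and the pull exposes the receptor to proteases that release its intracellular domain, which then acts in the nucleus with the DNA-binding protein RBPJ. JAG1, JAG2, DLL1 and DLL4 are the activating ligands of mammals, DLL3 is a divergent member best known for blocking Notch within its own cell, and DLK1 and DLK2 lack the domain through which classical ligands bind the receptor. Ligand genes are themselves known to respond to Notch activity, in opposite directions in different tissues: lateral inhibition, in which an activated cell lowers its own ligand, is best known for the Delta family, and lateral induction, in which it raises its ligand, is best known for JAG1.

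Depths recovered from the deposited values were 48528434 (A549-NICD1) and 48602848 (A549-Vector) reads. The values were read as FPKM, in which reads are scaled to the length of the gene and the depth of the library. NOTCH1 was at 5.40 FPKM in A549-Vector against 2865 FPKM in A549-NICD1, a total that does not separate the introduced NICD1 from the cell's own receptor mRNA. Reads of NOTCH1 and RFC4 together made up 0.0106% of the depth in A549-Vector against 3.25% in A549-NICD1. NOTCH1 had 2441 and 1293833 of these reads, and the rest were of RFC4. RFC4 was thus also many times higher in A549-NICD1, another large difference between the libraries beside NICD1. The paper reports that RFC4 binds NICD1 and stabilizes it. The part of RFC4 in the differences of the ligands was not tested. The labelled cell type was checked against markers listed with earlier results of these data known. Of 14 genes listed for A549, 8 were under 1 FPKM in both libraries, as were 6747 of all 19196 genes. KRT7, KRT19 and FGB were listed at 0 in both, as were 2020 of all genes. The summed level over the list was 176 FPKM in A549-Vector against 324 FPKM in A549-NICD1. A list for HEK293, a line from human embryonic kidney, had 6 of its 7 genes at or above 1 FPKM in each library. Over all 19196 genes, 12058 reached this level in both. The summed level over the HEK293 list was 236 FPKM (A549-Vector) and 223 FPKM (A549-NICD1). CDKN2A made up most of that sum, at 139 and 138 FPKM, and LIN28B, NEFL and NEFM lay between 20.1 and 33.5 FPKM. Low levels were read for PAX2 (3.02 and 1.77 FPKM), SOX11 (1.68 and 2.24 FPKM) and PEG10 (0.541 and 0.451 FPKM). Most of the A549 sum came from the epithelial keratins KRT8 (85.9 and 176 FPKM) and KRT18 (73.1 and 130 FPKM). By summed level, the A549 list was below the HEK293 list in A549-Vector but above it in A549-NICD1. The sums, each carried by few genes, thus do not point one way and do not decide the label. The 8 A549 markers under 1 FPKM, 3 of them at 0, go against the label for both libraries. The cells are therefore called A549-Vector and A549-NICD1 here by their labels only.

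JAG1 was the ligand with the clearest difference between the libraries. It was at 4.69 FPKM in A549-Vector (1364 reads, 95% exact Poisson interval 4.44 to 4.94 FPKM) against 15.2 FPKM in A549-NICD1 (4423 reads, interval 14.8 to 15.7 FPKM). The level in A549-NICD1 was thus above the level in A549-Vector by far more than counting error. The log2 fold change of A549-NICD1 over A549-Vector, taken on reads plus 0.5 after scaling the libraries by a trimmed mean of log ratios, was 1.75 (95% Clopper-Pearson interval 1.67 to 1.84), a 3.37-fold difference. A larger log2 fold change was found for 1.95% of the 15315 genes tested, which are those with 10 or more reads in either library. Genes with few reads filled much of that tail. With 100 or more reads summed over both libraries, 1.18% of 13341 genes were above a log2 fold change of 1 and 40 were above JAG1, and with 1000 or more reads, 0.388% of 10309 genes were above 1 and 12 above JAG1. The whole interval of JAG1 was above 1, as it was for 1.39% of the genes tested. JAG1 lies at chr20:10637684-10673999 (GRCh38, minus strand), and its longest protein-coding transcript in GENCODE 29 has 26 exons. An antisense gene, AL050403.2, covers 10.6% of that transcript, and although the study calls its sequencing strand-specific, the strand setting of the counting is not given, so reads of this stretch may not be told apart. No 100-base window of the JAG1 transcript was found in a transcript of another gene name.

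JAG2, the other Serrate-type ligand, was lower in A549-NICD1. It was at 13.1 FPKM in A549-Vector (3672 reads, interval 12.7 to 13.5 FPKM) against 10.5 FPKM in A549-NICD1 (2958 reads, interval 10.2 to 10.9 FPKM). Its log2 fold change was -0.26 (interval -0.33 to -0.19), a much smaller difference than that of JAG1 and of opposite sign. Over all tested genes, 17.5% had a lower log2 fold change than JAG2. JAG2 lies at chr14:105140981-105168824 (minus strand). The processed transcript AL512356.1 on the same strand covers 22.1% of its longest transcript, and 7 of 115 windows of JAG2 (6.09%) were also found in transcripts of another gene name.

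**Figure D1:**
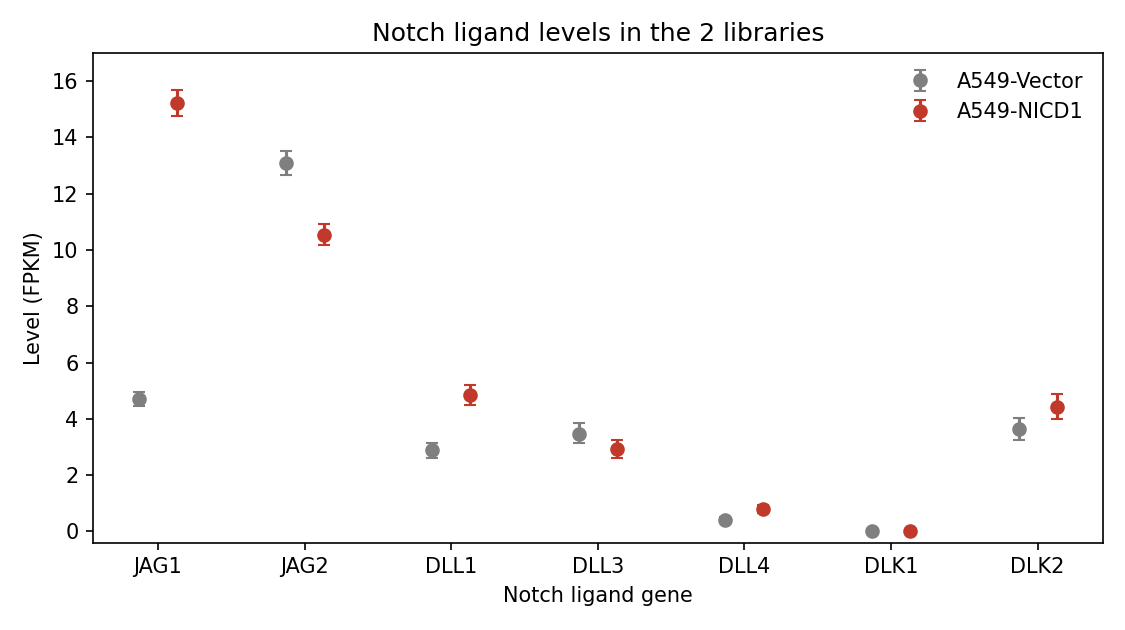
Level of each Notch ligand in FPKM (y axis, linear) by gene (x axis) in the A549-Vector library (grey) and the A549-NICD1 library (red), with bars for the 95% exact Poisson interval of the reads. JAG1 goes from 4.69 to 15.2 FPKM while JAG2 goes from 13.1 to 10.5 FPKM, and DLK1 lies at or next to 0 in both libraries.

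The ratio of JAG1 to JAG2 within a library does not depend on how the libraries are scaled to each other. By FPKM it was 0.358 in A549-Vector and 1.44 in A549-NICD1. In log2 units this ratio of reads was higher by 2.01 in A549-NICD1 (exact conditional interval 1.90 to 2.12), which is 4.03-fold. JAG2 was therefore the more abundant Jagged mRNA in A549-Vector and JAG1 in A549-NICD1.

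Among the Delta-like ligands, DLL1, which activates Notch in many developing tissues, was higher in A549-NICD1. It was at 2.88 FPKM in A549-Vector (463 reads, interval 2.62 to 3.15 FPKM) against 4.84 FPKM in A549-NICD1 (777 reads, interval 4.50 to 5.19 FPKM). Its log2 fold change of 0.80 (interval 0.64 to 0.97) stayed below 1 over the whole interval, and 5.36% of tested genes had a larger one. DLL1 lies at chr6:170282206-170306565 (minus strand), where no exon of its longest transcript is covered by another gene.

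DLL4, best known from endothelial cells, had few reads. It was at 0.415 FPKM in A549-Vector (69 reads, interval 0.323 to 0.525 FPKM) against 0.795 FPKM in A549-NICD1 (132 reads, interval 0.665 to 0.943 FPKM). Its log2 fold change was 0.99, with an interval of 0.56 to 1.43 that lies above 0 but holds 1, so at this depth it cannot be placed on either side of a doubling. DLL4 lies at chr15:40929333-40939073 (plus strand). All 6 endothelial markers listed (PECAM1, CDH5, VWF, KDR, TEK and TIE1) were under 1 FPKM in both libraries, as were 6747 of 19196 genes. The 6 markers had a summed level of 0.453 FPKM in A549-Vector against 0.494 FPKM in A549-NICD1. They did not move one way. TEK was at 0.0539 and 0.270 FPKM (9 and 45 reads), whereas KDR was at 0.292 and 0.146 FPKM (86 and 43 reads) and VWF at 0.0466 and 0.0187 FPKM (20 and 8 reads). PECAM1 had 0 and 9 reads, CDH5 9 and 2, and TIE1 3 and 4. The part of these genes in the difference of DLL4 was not tested.

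DLL3, known as a marker of neuroendocrine lung tumors, showed no difference beyond counting error. It was at 3.46 FPKM in A549-Vector (373 reads, interval 3.12 to 3.83 FPKM) against 2.91 FPKM in A549-NICD1 (313 reads, interval 2.60 to 3.25 FPKM). The interval of its log2 fold change of -0.20 ran from -0.42 to 0.02 and so held 0. DLL3 lies at chr19:39498895-39508481 (plus strand). Of 6 neuroendocrine markers listed, NEUROD1 was listed at 0 in both libraries, and NCAM1 and SYP made up most of the summed level of 17.9 and 17.1 FPKM.

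The DLK genes differed from each other mainly in whether they were read at all. DLK1, an imprinted gene known for holding back fat cell differentiation, had 0 reads in A549-Vector and 1 read in A549-NICD1. Over its length of 4575 bases, the upper bound of the 95% exact Poisson interval was 0.0166 FPKM in A549-Vector against 0.0251 FPKM in A549-NICD1. Both counts were under the floor of 3 reads, so no fold is given. DLK2 was at 3.62 FPKM in A549-Vector (317 reads, interval 3.24 to 4.05 FPKM) against 4.43 FPKM in A549-NICD1 (387 reads). Its log2 fold change was 0.34 (interval 0.13 to 0.56), and 12.1% of tested genes had a larger one. DLK1 lies at chr14:100725705-100738224 (plus strand) and DLK2 at chr6:43450352-43456632 (minus strand). The opposite-strand gene ABCC10 covers 3.78% of the DLK2 transcript.

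**Figure D2:**
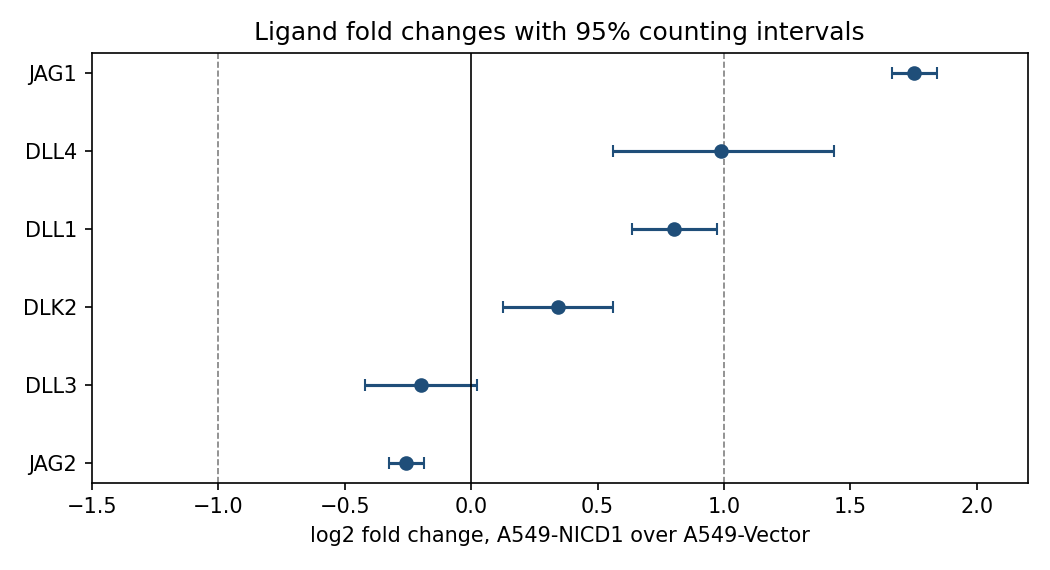
log2 fold change of A549-NICD1 over A549-Vector (x axis) for the 6 ligands tested (y axis), with bars for the 95% Clopper-Pearson interval and dashed lines at -1 and 1. JAG1 is the only ligand past 1, at 1.75, and JAG2 at -0.26 is the only one with an interval wholly below 0.

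Among the 6 ligands tested, 1 (JAG1) passed a log2 fold change of 1 and 0 passed -1, against 4.34% and 2.23% of all genes tested. Counting error alone set a weaker bar. The interval lay wholly above 0 for 4 ligands (JAG1, DLL1, DLL4 and DLK2), wholly below 0 for JAG2 and across 0 for DLL3, while 28.7%, 29.3% and 42.1% of all tested genes did so. By sign alone, 4 of the 6 ligands were above 0, as were 49.6% of all genes tested. The median log2 fold change of the 6 ligands was 0.57, beside -0.00 (-0.00265) for all tested genes. In bulk libraries, more cells that express a ligand and more mRNA per cell cannot be told apart.

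The ligands were also set against each other. Of 15 pairs among the 6 ligands, 13 had a ratio that differed between the libraries beyond its exact counting interval. These pairs share 6 genes and are not independent, and the same share over pairs of all genes was not computed. For single genes, only 42.1% of all those tested had an interval that held 0, so a high count of differing pairs is not particular to ligands. The 2 that did not were DLL1 with DLL4, whose ratio differed by -0.19 log2 units (interval -0.66 to 0.28), and DLL3 with JAG2, which differed by 0.06 (interval -0.17 to 0.29). Within the Delta-like family, the ratio of DLL1 to DLL3 was 0.831 in A549-Vector and 1.66 in A549-NICD1, with an interval of 0.72 to 1.28 for the log2 change. JAG1 was also higher relative to DLL1, the log2 change of the ratio of DLL1 to JAG1 being -0.95 (interval -1.14 to -0.76). By log2 fold change JAG1 thus stood above each of the other 5 ligands tested, DLL1 and DLL4 could not be ordered, and neither could DLL3 and JAG2.

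By level per length, the order in A549-Vector was JAG2, JAG1, DLK2, DLL3, DLL1, DLL4 and DLK1, and in A549-NICD1 it was JAG1, JAG2, DLL1, DLK2, DLL3, DLL4 and DLK1. Neighbours that could not be separated by counting error were DLK2 and DLL3 in A549-Vector, with a ratio of 1.05 (interval 0.898 to 1.22), and DLL1 and DLK2 in A549-NICD1, with a ratio of 1.09 (interval 0.965 to 1.24). The ligands ranged from unread to moderate in level. DLL4 was above 30.6% of all genes in A549-Vector and 34.8% in A549-NICD1. JAG2, the highest in A549-Vector, was above 68.2% of all genes there, and JAG1, the highest in A549-NICD1, was above 72.4% of them, having been above 49.9% in A549-Vector.

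The summed level of the 5 DLL and JAG ligands was 24.5 FPKM in A549-Vector against 34.3 FPKM in A549-NICD1. JAG1 made up 19.1% of this sum in A549-Vector (counting SE 0.485 percentage points) and 44.4% in A549-NICD1 (SE 0.552). JAG2 went the other way, from 53.3% to 30.7%. DLL3 made up 14.1% in A549-Vector and 8.49% in A549-NICD1, whereas DLL1 made up 11.7% and 14.1%. The 3 Delta-like ligands together summed to 6.76 FPKM in A549-Vector against 8.54 FPKM in A549-NICD1, below JAG2 alone in either library.

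**Figure D3:**
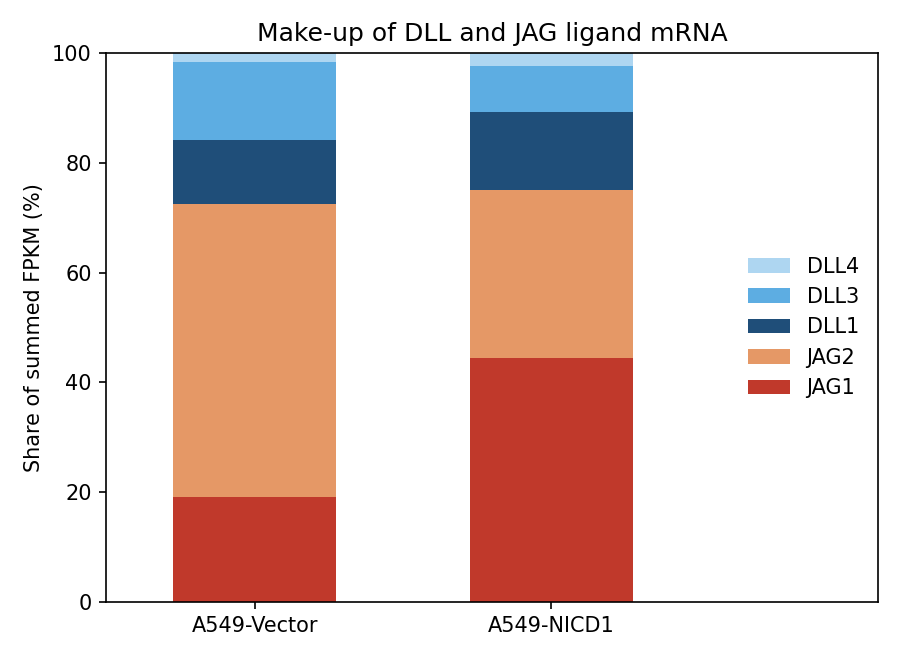
Share of each ligand in the summed FPKM of DLL1, DLL3, DLL4, JAG1 and JAG2 (y axis, percent) in the A549-Vector and A549-NICD1 libraries (x axis), as stacked bars. In A549-Vector JAG1 makes up 19.1% and JAG2 53.3%, against 44.4% and 30.7% in A549-NICD1.

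The genes most like JAG1 were sought by distance over the mean of log2(FPKM + 0.1) and the log2 fold change in these 2 libraries. The nearest were HEYL and HEY2, which encode transcriptional repressors of the Hairy/enhancer-of-split family that act downstream of Notch. HEYL was at 5.47 FPKM in A549-Vector against 17.6 FPKM in A549-NICD1, at a distance of 0.214, and HEY2 was at 5.93 and 17.4 FPKM, at a distance of 0.301. TUFT1, KLF10 and ANKRD33B followed at distances of 0.473, 0.538 and 0.634, with log2 fold changes of 1.35, 1.22 and 1.17. A likeness over 2 libraries rests on 1 level and 1 ratio only.

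**Figure D4:**
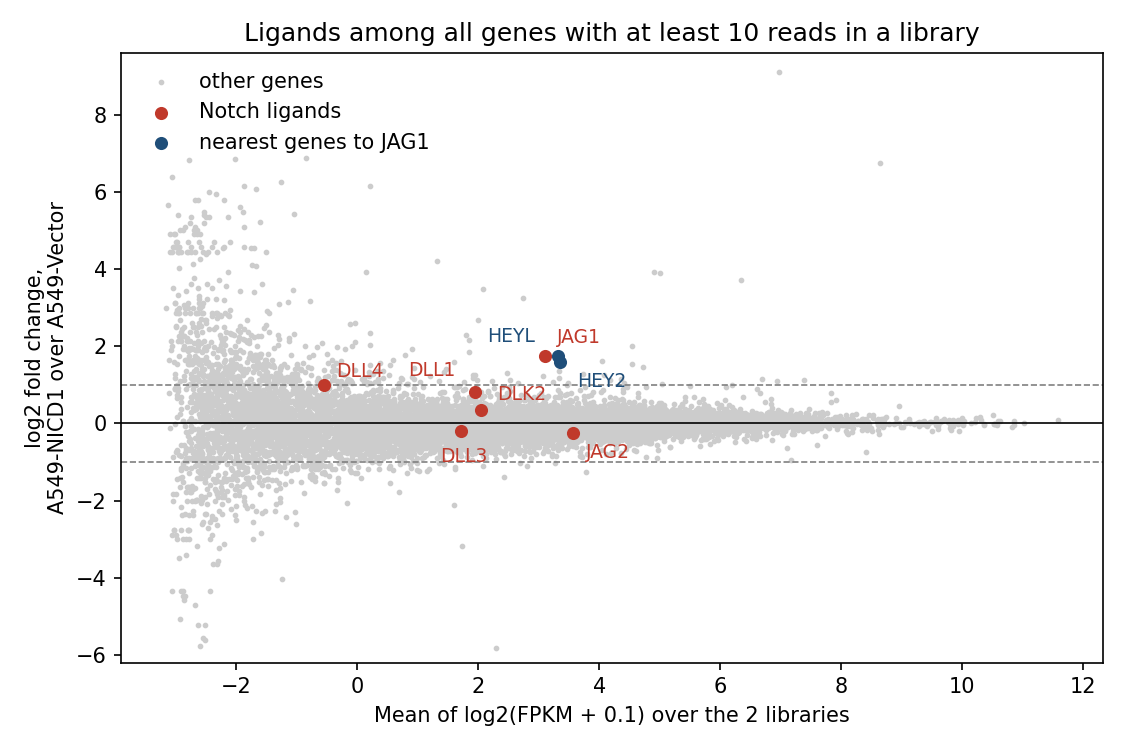
log2 fold change of A549-NICD1 over A549-Vector (y axis) against the mean of log2(FPKM + 0.1) over both libraries (x axis) for the 15315 genes tested (grey), with the 6 ligands tested in red, the 2 genes nearest to JAG1 in blue and dashed lines at -1 and 1. JAG1 stands above most genes of its level next to HEYL and HEY2, while DLL4 lies at 0.99 among genes of low level, where fold changes spread widely.

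The rest of the pathway was read from lists grouped by role. Of the 8 Notch targets, all 8 had an interval wholly above 0, and 4 of them passed a log2 fold change of 1, against 28.7% and 4.34% of all genes tested. The largest were HES5 (7.78 and 115 FPKM, log2 fold change 3.93) and HEYL (1.74), so JAG1 lay within the range of the targets, spanning 0.26 to 3.93. The receptors other than NOTCH1 were close to level. NOTCH2 was at 48.7 FPKM in A549-Vector against 45.2 FPKM in A549-NICD1, NOTCH3 at 30.6 and 30.0 FPKM, and NOTCH4 at 0.244 and 0.217 FPKM. Each of NOTCH2 and NOTCH3 was thus more abundant than any of the 7 ligands in both libraries.

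The E3 ubiquitin ligases that send ligands into the cell had log2 fold changes from -0.31 to 0.47. MIB1, the main ligase for Notch ligands, was at 35.2 FPKM in A549-Vector against 29.6 FPKM in A549-NICD1 (log2 fold change -0.20, interval -0.23 to -0.17). Its paralog MIB2 was at 12.0 and 16.0 FPKM (0.47, interval 0.39 to 0.56). NEURL1 was at 1.21 and 1.20 FPKM and NEURL1B at 1.89 and 1.47 FPKM, with log2 fold changes of 0.04 and -0.31. None of the 4 passed a log2 fold change of 1 or -1, which 4.34% and 2.23% of all genes tested did. By counting interval, 1 of the 4 lay wholly above 0 and 2 wholly below, against 28.7% and 29.3% of all genes tested.

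Of 8 other proteins described as non-canonical Notch ligands, 6 had enough reads to be tested, and 2 of these passed 1 while 0 passed -1, against 4.34% and 2.23% of all genes tested. Both were low in reads, and with 100 or more reads summed 1.18% of genes passed 1. The 2 were DNER, at 0.0566 FPKM in A549-Vector against 0.164 FPKM in A549-NICD1 (9 and 26 reads, log2 fold change 1.54, interval 0.45 to 2.86), and CCN3, listed under its older symbol NOV, at 0.372 and 0.784 FPKM (47 and 99 reads, 1.12, interval 0.62 to 1.66). By counting interval, 2 of the 6 lay wholly above 0 and 2 wholly below, against 28.7% and 29.3% of all genes tested. The 2 below had more reads. They were CNTN1 (1158 reads in A549-Vector and 703 in A549-NICD1, log2 fold change -0.66) and EGFL7 (1323 and 1034 reads, -0.30). The median over the 6 was -0.18. Among the fringe and other glycosyltransferases that set how receptors read Delta and Jagged ligands, 4 of 5 had an interval that held 0, as did 42.1% of all genes tested. The exception was MFNG, at 0.583 FPKM in A549-Vector against 0.247 FPKM in A549-NICD1 (log2 fold change -1.17, interval -1.92 to -0.49). Of 9 proteases and protease subunits that cut the receptor, 5 had an interval wholly above 0 and 0 had one wholly below, against 28.7% and 29.3% of all genes tested, with FURIN (0.50) and NCSTN (0.17) the largest and a median of 0.07. Of the 4 genes of the nuclear complex, 3 had an interval wholly below 0 (29.3% of all genes tested), among them RBPJ, at 38.0 FPKM in A549-Vector against 30.9 FPKM in A549-NICD1 (log2 fold change -0.24), and MAML3 (-0.57).

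**Figure D5:**
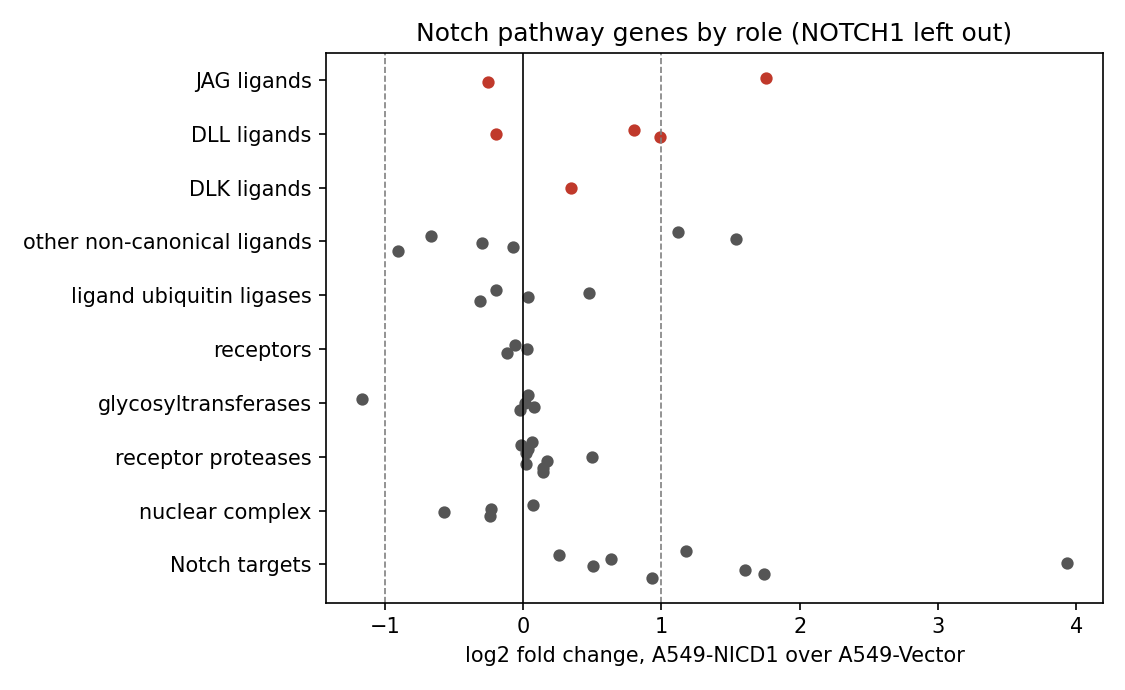
log2 fold change of A549-NICD1 over A549-Vector (x axis) for each Notch pathway gene tested, in rows by role (y axis), with NOTCH1 left out, ligands of the DLL, JAG and DLK families in red, other genes in grey and dashed lines at -1 and 1. The 8 Notch targets all lie above 0, from 0.26 to 3.93, while the JAG ligands lie on either side of it.

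Of the 14 A549 markers, 9 were tested, with 5 higher and 4 lower in A549-NICD1, where 49.6% of all genes tested were higher. The interval was wholly above 0 for 3 of them and wholly below 0 for 1, against 28.7% and 29.3% of all genes tested. The 1 below was AKR1C1 (1.15 and 0.553 FPKM, interval -1.26 to -0.74). The largest levels were those of the epithelial keratins KRT8 and KRT18. KRT8 was at 85.9 FPKM in A549-Vector against 176 FPKM in A549-NICD1, and KRT18 at 73.1 against 130 FPKM. The log2 fold change of KRT8 was 1.09 and that of KRT18 was 0.89. The part of these markers in the difference of JAG1 was not tested.

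Promoters of 4 of the 7 ligands (DLL4, JAG1, JAG2 and DLK2) were found in the RefSeq table (GRCh38.p14), and those of DLL1, DLL3 and DLK1 were not used here. The 250 bases before the start of JAG1 and DLL4, the ligands with the highest log2 fold changes, and of JAG2, the one with the lowest, are shown 5′ to 3′ on the strand of the gene, to set their sequence beside their opposite differences. They are chr20:10674000-10674249 (minus strand) for JAG1, chr15:40929090-40929339 (plus strand) for DLL4 and chr14:105168777-105169026 (minus strand) for JAG2. Capitals mark CACGCG or its reverse complement CGCGTG, a class C site of the kind bound by HES and HEY repressors, and would mark TGGGAA or TTCCCA, the core letters of the RBPJ motif.
JAG1: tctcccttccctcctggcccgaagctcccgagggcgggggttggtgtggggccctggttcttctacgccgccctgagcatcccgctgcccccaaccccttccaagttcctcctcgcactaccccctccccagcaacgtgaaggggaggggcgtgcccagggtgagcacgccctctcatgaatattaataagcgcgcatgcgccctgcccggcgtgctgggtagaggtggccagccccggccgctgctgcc
DLL4: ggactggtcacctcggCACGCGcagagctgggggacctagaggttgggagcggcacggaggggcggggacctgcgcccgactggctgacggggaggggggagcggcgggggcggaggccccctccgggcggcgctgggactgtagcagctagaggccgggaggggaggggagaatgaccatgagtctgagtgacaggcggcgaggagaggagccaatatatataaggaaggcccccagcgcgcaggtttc
JAG2: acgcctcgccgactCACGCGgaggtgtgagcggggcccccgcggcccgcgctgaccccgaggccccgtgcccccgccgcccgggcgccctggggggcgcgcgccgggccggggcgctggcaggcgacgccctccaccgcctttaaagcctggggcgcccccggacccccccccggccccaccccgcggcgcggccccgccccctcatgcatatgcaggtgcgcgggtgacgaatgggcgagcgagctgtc
None of the 4 ligand windows held TGGGAA on either strand (0 of 4), which 20.8% of all 35116 promoter windows of 250 bases did. Of the 8 Notch targets, 6 had a window in the table, and 5 of these 6 held TGGGAA on either strand. HES1, HES5 and HEYL held 2 each, HEY2 and HES4 held 1 each and NRARP held 0. In HEYL, the gene most like JAG1, they lay at -178 and -99, counted at the leftmost base of the match with -1 as the base before the start. CACGCG was found on either strand once in DLL4, at -234, and once in JAG2, at -236, and not in JAG1 or DLK2, against 9.72% of all windows. Of the 6 targets, HES1 alone held it, at -120 and -47. The windows of JAG1, DLL4, DLK2 and JAG2 were 68.4%, 70.0%, 72.4% and 81.6% G or C, above the median of 58.0% over all windows. These matches are letters in a short window, and sites farther from the start were not searched.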

How the data were processed

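Expression was measured by mRNA sequencing in 1 A549-NICD1 and 1 A549-Vector library, grouped by their labels. For each library the authors deposited 1 value per gene, taken here as FPKM from the values themselves. Per the labels, the submitters' processing notes name Bowtie2, HTSeq and hg38, and the versions, annotation and normalization are not given in the sources used here.

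Of 19225 rows, 27 with a number for a gene name were left out, as were 2 genes whose values gave no whole reads. Values of a gene in the 2 libraries stood in whole-number ratios after a factor of 1.0015, and the depth was the largest at which gene lengths came out whole, which they did for 5078 of 7712 genes. At these depths 88.2% of 1668 genes checked gave whole reads at a length of up to 6000 bases, against 0.240% when both depths were set wrong on purpose. The distance allowed from a whole read rose with the number of reads, was far smaller for genes with few reads and was at most 0.005. Any multiple of a length also gives whole reads, so the length nearest to the median RefSeq-linked coding transcript of GENCODE 29 was taken. Reads then summed to 106% of the depth in both libraries, so the reads of some genes are multiples of their true number, which does not move their ratio but makes the interval too narrow. Reads of the 7 ligands were the same under each of 3 rules for the length. Each rule takes the length nearest to a coding transcript, so this does not exclude multiples for the ligands. From 5 lengths (JAG1) to 31 lengths (JAG2) gave whole reads.

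The scaling factor of A549-NICD1 was 0.963 (trimming 30% of ratios and 5% of the expression range), and a pseudocount of 0.5 reads was added, which pulls the log2 fold change of low genes toward 0. Genes with 10 or more reads in either library were tested and called at a log2 fold change above 1 or below -1. No molecular identifiers are described, so a read is not an independent molecule. Scaling, pseudocount, filter, share and ratio alternatives were run. The named genes were the 7 ligands, the receptors and ligases, the 2 of each other list with the largest size of log2 fold change, and the 5 genes nearest to JAG1. The markers named (endothelial, neuroendocrine, A549 and HEK293), HES1, HES4, NRARP, CNTN1, EGFL7 and RFC4 were named after their values were seen. The members and lists were chosen with earlier results of these data known. Scripts ran in Python 3.11.15 with NumPy 2.4.6, SciPy 1.17.1, pandas 2.3.3 and Matplotlib 3.10.9, and were tested on simulated data.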

Additional observations from a re-analysis of the deposited data

How the results depend on the processing

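No paired analysis was possible because each group had 1 library. JAG1 stayed above a log2 fold change of 1 in every setting run, from 1.56 with a pseudocount of 1 FPKM, outside its counting interval, to 1.75. The number of ligands above 1 was 1 in each setting except without a filter, where it was 2, since DLK1 with 1 read and 0 reads then counts, and 0 were below -1 throughout. Of 30 values of the other 5 ligands, 28 stayed within their counting interval, 2 did not (both with a pseudocount of 1 FPKM, DLL1 at 0.63 and DLL4 at 0.37) and 0 changed sign. With a log2 change of 1.99 against 2.01, the JAG1 to JAG2 ratio hardly moved when taken from FPKM plus 0.1. The share of JAG1 was 39.3% in A549-NICD1 and 16.7% in A549-Vector with DLK1 and DLK2 added, and 51.4% and 23.0% by reads in place of FPKM.

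Counts over all genes depend on genes with few reads. There were 665 genes above 1 and 342 below -1. A pseudocount of 0.1 FPKM instead gave 317 and 129, a pseudocount of 1 FPKM 45 and 7, no filter 1515 and 792, at least 100 reads summed 158 and 87, and a mean of at least 1 FPKM 88 and 32. Scaling by total depth moved the median of tested genes by -0.05. Depth limits DLL4, with 69 and 132 reads, and DLK1.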
